A study of Mus musculus with 30 samples.

Results

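Many genes make several transcripts from one locus, through other first exons, skipped or swapped internal exons, retained introns and other last exons. The transcript made can set which protein is translated, or whether the RNA is decayed before it is translated. In liver, a textbook example is the alternative promoters of pyruvate kinase.

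Isoform usage was compared between livers of 2 inbred Collaborative Cross strains, CC019/TauUnc and CC037/TauUnc, here CC019 and CC037. Both are recombinant inbred mouse strains. The groups were 3 female and 3 male CC019 inbreds and 5 female and 4 male CC037 inbreds, all 4 months old, and 14 F1s with a transcript table (6 CC019 x CC037 and 8 CC037 x CC019) of the 30 samples in the series. The inbred libraries used here come from 1 batch and the F1s from another, while the comparison of strains and the comparison of alleles each lie within a batch. The study also sequenced 6 inbreds with the F1s to examine batch effects. Those second libraries are not in the tables used here, so batch and cross type cannot be told apart in these tables. Libraries were made from poly(A) RNA of the median liver lobe and held 31090748 to 61026642 estimated reads in the inbreds and 27699445 to 63316558 in the F1s.

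A gene was a member if it had a mean of at least 1 CPM (reads scaled to library depth) in each strain and at least 2 transcripts that each held at least 10% of its reads in a strain. Of 44557 genes with transcripts, 11812 had at least 1 CPM in each strain. The transcripts of 11598 of these added up to the deposited gene tables, a condition chosen after seeing the data. Among them 5473 genes, with 13425 transcripts, met the rule. Purg was just inside the gene minimum with 1.001 CPM, and Rtl5 was just outside with 0.9995 CPM. Rnf111-207 was just inside the share minimum with 10.000%, and Prrg2-205 was just outside with 9.997%. Most members had few alternatives, with 2 such transcripts in 3584 genes, 3 in 1417 and 4 or more in 472.

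Hepatocyte markers were abundant in every inbred, with 6 markers summing to between 102149 and 125676 CPM in CC019 and between 69857 and 109797 CPM in CC037. Albumin was the most abundant of them. Some markers of liver cell types were called between the strains, with no test against the 23.3% called over all genes. Total reads were called higher in CC019 in 2 of the 6 hepatocyte markers (CC019 median sum 115034 CPM, CC037 median sum 94450 CPM). Of 5 stellate markers 2 were lower in CC019 (174 and 207 CPM, Dcn the most abundant), beside 23.3% of all genes called in either direction. Of 4 cholangiocyte markers tested, 1 was higher and 1 lower (60.2 and 46.1 CPM for all 5, Spp1 the most abundant). Of 5 endothelial and 5 Kupffer cell markers 0 were called (120 and 174 CPM, Stab2 the most abundant, and 146 and 172 CPM, Cd5l the most abundant). No marker of these cell types was at 0 in both strains. The part of cell types in the share differences was not tested. Some libraries held RNA of other tissues. In CC019 female 2 the pancreatic enzyme genes Pnlip, Prss2, Cela1 and Cpa1 had 1971, 1328, 1288 and 1132 CPM, and in CC019 male 2 they had 148, 91.9, 129 and 84.6 CPM. In CC037 female 1 the skeletal muscle genes Acta1, Ckm and Myh4 had 427, 184 and 135 CPM, and in CC037 male 2 they had 9.06, 4.47 and 3.53 CPM. One F1, CC019 x CC037 female 1, held 1407 CPM of Acta1. In a score of circadian clock genes, Arntl, Clock and Npas2 were subtracted from Ciart, Dbp and Tef as averages of log2 CPM. Its median was higher in CC019, at 3.27 (1.70 to 3.32), than in CC037, at 1.42 (−1.58 to 2.05). With this score as a covariate 402 transcripts were called between strains by edgeR. Counts without the 4 inbreds are given with the total reads, as an alternative chosen after seeing the data.

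Transcript shares differed between the strains in many genes, and how many depended strongly on the test and on the reads and genes used. With edgeR, which compares the log2 change of a transcript with that of its gene, 554 of 13425 transcripts (4.13%) passed an adjusted p of 0.05, 298 with a higher share in CC019 and 256 with a lower one. They lay in 431 of 5473 genes (7.88%). In 382 genes (6.98%) a transcript that passed also differed by at least 10 percentage points. With limma voom a transcript passed in 1130 genes (20.6%), and with DESeq2 in 1527 genes (27.9%). Of the 554 transcripts, voom called 484 with the same sign and DESeq2 called 503. With reads of the own version alone, edgeR called 2382 of 13004 transcripts, with 1281 of 5152 genes of at least 10 points. In genes whose versions were within 1% in length it called 150 of 9503 transcripts, with 111 of 3928 such genes.

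The edgeR test sets a transcript against its whole gene, that transcript included, so a change of the most abundant transcript moves both sides of the comparison. It called 61 of 5473 most abundant transcripts (1.11%) and 493 of 7952 others (6.20%). Voom called 698 most abundant transcripts (12.8%) and 1177 others (14.8%), and DESeq2 called 1037 (18.9%) and 1578 (19.8%). A most abundant transcript that edgeR did not call is therefore not shown to be alike in the strains, and the edgeR counts of such transcripts are low by the construction of the test.

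**Figure D1:**
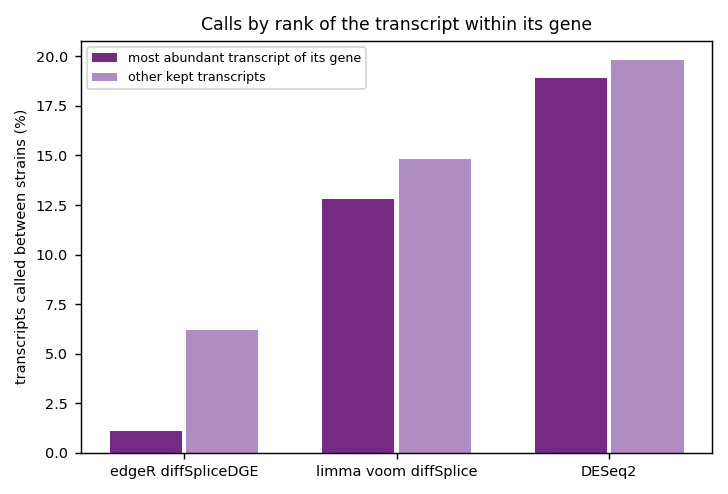
Percent of transcripts called between CC019 and CC037 inbreds by each tool (horizontal axis), for the most abundant transcript of each gene (dark bars, 5473 transcripts) and the other kept transcripts (light bars, 7952). The edgeR bars stand at 1.11% and 6.20%, those of voom at 12.8% and 14.8%.

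Each gene was described by its lead transcript, the one with the largest difference in mean share. The lead was called by edgeR in 252 genes (4.60%), 146 higher and 106 lower in CC019, and its median difference was 22.3 points. In 29 of these genes the difference was at least 50 points. The strains did not overlap in the share of the lead in 478 genes (8.73%), among them 166 of the 252. Of the 252 called leads, 35 were the most abundant transcript, against 2707 of all 5473 leads. The median SD of a share among mice of 1 strain was 5.50 points, with a median of 687 reads per gene and mouse.

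Called leads and all leads were each compared with their counterpart, the transcript with the largest opposite difference. Another first exon was present in 40.5% of called leads and 40.5% of all leads with a counterpart, a skipped internal exon in 32.5% and 30.1%, a retained intron in 14.7% and 14.1%, and another last exon in 13.5% and 15.4%. Another coding region was present in 53.6% and 55.7%. Retained-intron transcripts were 11.1% of called leads and 5.87% of all leads, and protein-coding transcripts were 74.6% and 83.1%. These shares were not tested against each other.

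Salmon quantified each transcript in a CC019 version and a CC037 version, and calls were more frequent where the versions differed in length. The lead was called in 90 of 3928 genes (2.29%) whose versions were within 1% in length and in 162 of 1545 (10.5%) of the rest. The same versions are used for the F1 alleles, so an error in a version would appear in both comparisons. Its part in the calls was not tested.

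In the F1s both alleles share 1 nucleus, and transcript shares were compared between the CC019 and the CC037 allele within each mouse. This needed reads that tell the alleles apart, which left 1587 genes. Of 3776 transcripts, 279 (7.39%) were called by edgeR. A lead had an allelic test in 1582 genes. Among these, 48 leads (3.03%) were called in strains and alleles with the same sign, 2 were called with opposite signs, and 82 of the 90 called between strains had the same sign in the F1 means. Of 1492 leads not called between strains, 954 also had the same sign. With voom for both tests, 194 genes were called with the same sign. The 48 genes were 24 of 1394 leads (1.72%) in genes whose versions were within 1% in length and 24 of 188 (12.8%) in the rest. In 45 of the 48 the mean F1 share lay between the strain means.

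**Figure D2:**
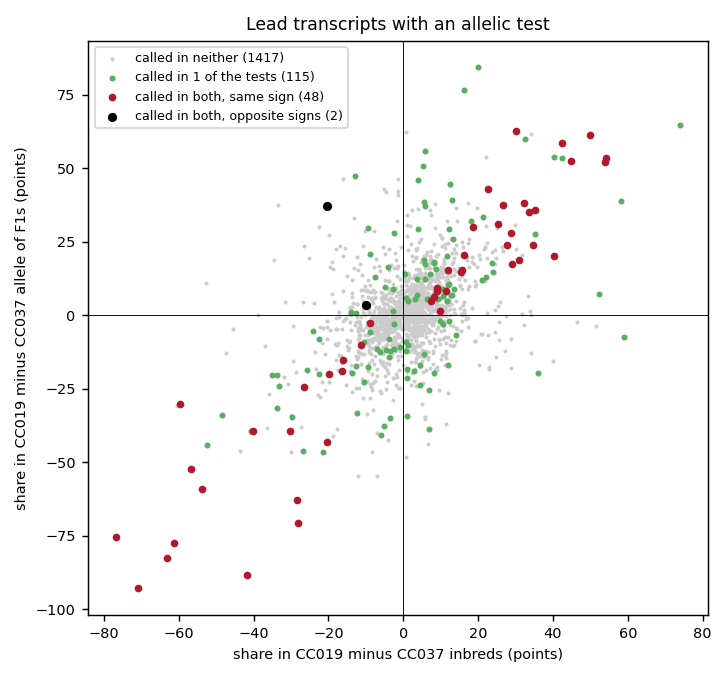
Difference in share of the lead transcript between CC019 and CC037 inbreds (horizontal axis, percentage points) and between the CC019 and CC037 alleles of F1s (vertical axis, percentage points), for 1582 genes. The 48 genes called in both with the same sign are in red and the 2 with opposite signs in black.

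Sumf2, a member of the sulfatase-modifying factor family (chr5:129846986-129864050, GRCm38), had the largest difference of the genes named from that set. Sumf2-204, the coding transcript, held 13.5% to 47.8% of the reads in CC019 (median 25.4%) and 92.5% to 100% in CC037 (median 97.5%). The strains did not overlap. The difference was −70.8 points (26.3% ± 13.1 against 97.1% ± 2.52, SD, n = 6 and 9, adjusted p = 2.7e-05), and in females alone it was −60.3 points (adjusted p = 0.059). In CC019 a mean of 60.1% lay on Sumf2-202, annotated for nonsense-mediated decay, against 0.0790% in CC037. On the F1 alleles Sumf2-204 held 0% to 7.88% for CC019 and 85.4% to 100% for CC037, and all 14 F1s had the sign of the strains. The CC019 allele lay below all 6 CC019 inbreds. The versions of Sumf2-202 were 1656 and 862 bases long in CC019 and CC037. The exon found in Sumf2-202 alone is shown because its 44 bases are not a whole number of codons (chr5:129854464-129854507, + strand).
Sumf2-202 exon: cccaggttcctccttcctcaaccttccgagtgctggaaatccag

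Adcy9, which encodes an adenylyl cyclase, differed in its first exon. Adcy9-201 held 0% in all 6 CC019 mice and 54.7% to 69.2% in CC037 (median 65.4%, adjusted p = 1.0e-10). With a median of 1396 reads in CC019, 0 reads allow a share of up to 0.215%, for counting error only. Adcy9-202, with the same coding region, held a mean of 60.6% in CC019 and 1.54% in CC037. The versions of Adcy9-202 were 4507 bases long in CC019 and 4138 in CC037, and those of Adcy9-201 were 4457 in both. The part of this length in the shares was not tested. The CC019 allele of the F1s was at 0% in all 14 mice, and the CC037 allele held 54.1% to 100%.

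Sugct and Rpl12 differed in shares and in total reads. Sugct-201 held 24.7% to 40.3% in CC019 (median 28.1%) and 89.3% to 92.8% in CC037 (median 90.6%, adjusted p = 5.3e-09), beside 5.49 CPM ± 0.779 and 39.3 CPM ± 3.49 for the whole gene. Rpl12-203, of a ribosomal protein gene, held 22.8% to 34.2% in CC019 (median 24.7%) and 80.2% to 88.0% in CC037 (median 83.2%, adjusted p = 1.9e-09), beside 8.48 CPM ± 0.603 and 104 CPM ± 8.60. Neither pair of groups overlapped, and all 14 F1s had the sign of the strains in both genes. Ribosomal protein genes have near-identical copies in the genome, so the Rpl12 values are uncertain.

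Wdfy1 shows how little sequence can separate transcripts. Wdfy1-207 held 0% to 5.82% in CC019 (median 0.0219%) and 37.9% to 75.3% in CC037 (median 63.7%, adjusted p = 0.0043). The difference of −59.6 points was −62.8 in females alone, −55.4 in males alone and −59.9 without the 4 libraries that held other tissues, an alternative chosen after seeing the data, at adjusted p = 0.13, 0.11 and 0.11. The call was kept on leaving out any 1 mouse and with reads of the own version alone (adjusted p = 0.0018). The adjusted p was 0.083 with voom and 5.7e-28 with DESeq2. By TPM the difference was −38.8 points, and 9 of 14 F1s had the sign of the strains. The counterpart Wdfy1-204 held 0% to 100% in CC019 (mean 65.9%) and 0% to 55.3% in CC037 (mean 17.3%). How reads divide between these transcripts varied widely within a strain, so the Wdfy1 values are uncertain. Wdfy1-207 and Wdfy1-204 each carry a coding exon of 113 bases and one of 151 bases that the other lacks, at other positions on chromosome 1, and the reference sequence of both pairs is equal at all 113 and all 151 positions. The 113-base exon is shown for that reason (chr1:79717203-79717315 in Wdfy1-207 and chr1:79724645-79724757 in Wdfy1-204, − strand, GRCm38).
Wdfy1 exon: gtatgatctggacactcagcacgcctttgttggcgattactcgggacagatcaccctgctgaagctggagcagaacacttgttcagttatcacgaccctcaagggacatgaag

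Zfp386 and Zscan21 encode zinc finger proteins. Zfp386-204 held 46.7% to 70.4% in CC019 (median 60.7%) and 2.10% to 6.18% in CC037 (median 4.13%, adjusted p = 6.8e-11). Zscan21-204 held 0% to 12.6% in CC019 (median 0%) and 38.6% to 66.4% in CC037 (median 57.7%, adjusted p = 7.6e-05). The groups did not overlap in either gene. In Zscan21 the counterpart has the same coding region, whereas in Zfp386 it has another. The strain versions of the lead and of its counterpart differed by at most 1 base in length in both genes. By TPM the difference of Zfp386-204 was 27.8 points in place of 53.9. In females alone the difference of Zscan21-204 was −47.1 points in place of −53.8 (adjusted p = 0.14).

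The transcripts named of Bloc1s6, Ecsit and Tbrg1 had higher shares in CC019. Bloc1s6-201, a coding transcript of a subunit of the BLOC-1 complex, held 66.3% to 74.0% in CC019 (median 72.7%) and 9.83% to 24.5% in CC037 (median 17.0%, adjusted p = 3.5e-09). Ecsit-203, of a mitochondrial complex I assembly factor, held 48.4% to 57.9% (median 55.3%) and 6.87% to 13.9% (median 8.70%, adjusted p = 8.6e-13). Tbrg1-204, a transcript annotated for nonsense-mediated decay, held 44.2% to 52.9% (median 49.9%) and 4.15% to 10.6% (median 6.47%, adjusted p = 4.4e-22). It differs from its counterpart Tbrg1-201 in the retention of an intron. No groups overlapped, and in each of these genes all 14 F1s had the sign of the strains. The F1 means of Tbrg1-204 were 62.6% ± 2.85 on the CC019 allele and 3.93% ± 2.25 on the CC037 allele (SD, n = 14, adjusted p = 1.0e-06), and on the CC019 allele all 14 lay above all 6 CC019 inbreds. The versions of its counterpart Tbrg1-201 were 3387 bases long in CC019 and 1984 in CC037, and the part of this length in the shares was not tested. By TPM the difference of Tbrg1-204 was 58.5 points in place of 42.5.

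**Figure D3:**
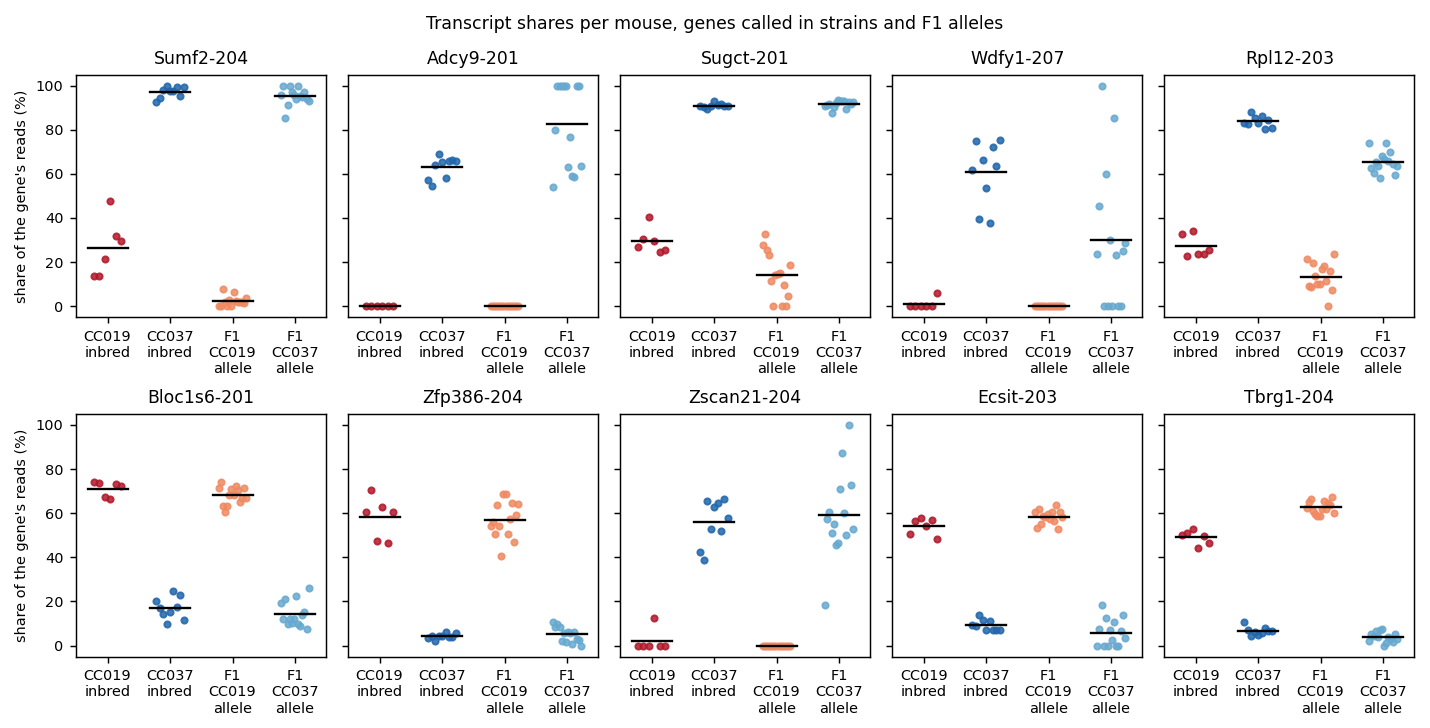
Share of the named transcript in its gene's reads (vertical axis, percent) in each CC019 inbred, CC037 inbred, and CC019 and CC037 allele of each F1, for 10 genes called in strains and alleles with the same sign. Points are mice and lines are means. In Wdfy1 the CC037 allele ranges from 0% to 100%.

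Zfp644 and Aen were called with opposite signs. Zfp644-205 held 0% in all 6 CC019 mice and 0% to 38.1% in CC037 (median 27.1%, adjusted p = 8.9e-05), while the F1 means were 39.7% ± 36.8 on the CC019 allele and 2.59% ± 9.68 on the CC037 allele (SD, n = 14, adjusted p = 0.0024). Aen-204 held 0% to 1.48% in CC019 (median 0%) and 9.14% to 11.6% in CC037 (median 10.4%, adjusted p = 9.7e-07), with F1 means of 6.84% ± 4.25 and 3.47% ± 5.59 on the alleles (SD, n = 14, adjusted p = 0.012). In females alone the strain difference of Zfp644-205 was −17.0 points in place of −20.4 (adjusted p = 0.11). The strains overlapped in Zfp644 and not in Aen. By TPM the strain difference of Aen-204 was −3.84 points in place of −9.97.

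Genes of amino acid, glucose and one-carbon metabolism held 18 members with several transcripts. A transcript was called by edgeR in 2 of them, Pklr and Mthfd1, by voom in 4 and by DESeq2 in 10, beside 7.88%, 20.6% and 27.9% of all 5473 genes. Pklr encodes the pyruvate kinase of liver and red blood cells, with a promoter for each. Pklr-202, which starts at the downstream, liver-type promoter, held 97.6% to 98.9% in CC019 (median 98.6%) and 21.0% to 24.4% in CC037 (median 21.9%, adjusted p = 4.3e-05). The groups did not overlap, and Pklr-201, from the upstream promoter, held a mean of 0.148% and 76.2%. Total Pklr was 185 CPM ± 60.0 in CC019 and 503 CPM ± 125 in CC037 (SD, n = 6 and 9, adjusted p = 1.2e-04). The versions of Pklr-202 were 2896 bases long in CC019 and 3883 in CC037, those of Pklr-201 were 2786 and 2787, and the part of this length in the shares was not tested. Pklr had no allelic test, since as little as 75.3% of its reads lay on the own version. The F1 alleles held 98.1% to 99.8% and 0.224% to 1.54% of Pklr-202, so the CC037 allele lay below all 9 CC037 inbreds. With reads of the own version alone the strain difference was 98.2 points in place of 76.4, and by TPM it was 61.9. The Pklr values are uncertain, both the size of the difference and how the CC037 reads divide between Pklr-202 and Pklr-201.

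The bases upstream of both Pklr starts are shown because the transcripts differ there (RefSeq, GRCm38.p6, + strand, chr3:89135892-89136141 and chr3:89136373-89136571). Capitals mark CACGNG and CNCGTG with 5 bases between them, a form of the carbohydrate response element. It was searched on both strands and was found in 1 of the 2 Pklr promoters and in 15 of all 32851 promoters (0.0457%), each of 250 bases before and 50 after a start. A match is a description and not a site of binding.
Pklr-201 promoter: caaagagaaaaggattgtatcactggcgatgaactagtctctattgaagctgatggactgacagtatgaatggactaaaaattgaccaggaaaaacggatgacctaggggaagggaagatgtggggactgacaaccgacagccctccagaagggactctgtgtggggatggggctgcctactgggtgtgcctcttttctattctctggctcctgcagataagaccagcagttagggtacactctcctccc
Pklr-202 promoter: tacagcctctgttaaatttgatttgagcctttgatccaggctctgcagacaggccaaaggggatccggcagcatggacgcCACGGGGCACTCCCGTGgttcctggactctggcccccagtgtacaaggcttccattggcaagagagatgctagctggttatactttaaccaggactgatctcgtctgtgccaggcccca

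Among genes of lipid and bile acid metabolism, 20 were tested. A transcript was called by edgeR in 5, Hadhb among them, by voom in 6 and by DESeq2 in 8 (7.88%, 20.6% and 27.9% over all genes). Hadhb-203, of the mitochondrial trifunctional protein, held 12.2% to 13.9% in CC019 (median 13.4%) and 24.4% to 36.8% in CC037 (median 30.4%, adjusted p = 2.0e-05). The groups did not overlap, and all 14 F1s had the sign of the strains, with no allelic test. The CC019 allele of the F1s held 0% to 2.81% of Hadhb-203, below every CC019 inbred. As little as 71.2% of Hadhb reads lay on the own version in an inbred. The versions of Hadhb-203 were 1981 and 2048 bases long in CC019 and CC037, so the size of the difference is uncertain.

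Of the hnRNPs and other splicing regulators, 31 were tested. A transcript was called by edgeR in 4 (Ewsr1, Mbnl1, Mbnl2 and Tardbp), by voom in 9 and by DESeq2 in 11, where the shares over all genes were 7.88%, 20.6% and 27.9%. Mbnl2-201, of a muscleblind-like splicing factor, held 30.5% to 44.7% in CC019 (median 39.4%) and 7.70% to 21.4% in CC037 (mean 13.2% ± 4.38, SD, n = 9, adjusted p = 1.2e-07 with edgeR). Ewsr1-205, of an RNA-binding protein, held 34.9% to 42.5% in CC019 (median 38.1%) and 0% to 12.8% in CC037 (median 6.06%, adjusted p = 1.6e-07). Tardbp-204, of the RNA-binding protein TDP-43, held 5.51% to 9.93% in CC019 (median 6.89%) and 12.7% to 21.9% in CC037 (median 17.3%, adjusted p = 0.0043). No groups overlapped. In the F1s, Ewsr1-205 went the other way, at 0% on the CC019 allele of all 14 mice and 19.9% to 40.8% on the CC037 allele, with no allelic test. As little as 41.1% of Mbnl2 reads, 54.2% of Ewsr1 reads and 59.2% of Tardbp reads lay on the own version in an inbred. The versions in CC019 and CC037 were 4553 and 5443 bases long for Mbnl2-201, 2011 and 2174 for Ewsr1-205, and 2447 and 1904 for Tardbp-204. By TPM the difference of Ewsr1-205 was 21.2 points in place of 32.5. The difference of Tardbp-204 was −10.5 points in males alone (adjusted p = 0.093) and −9.18 points in place of −9.71 without the 4 libraries that held other tissues (adjusted p = 0.080), an alternative chosen after seeing the data.

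An exon of each of 2 of these transcripts is shown because Mbnl2-204 and Ewsr1-203, with which they were compared, lack it. Its length is a whole number of codons, and its reading frame was not examined. That of Mbnl2-201 has 54 bases (chr14:120395712-120395765, + strand) and that of Ewsr1-205 has 18 (chr11:5091460-5091477, − strand).
Mbnl2-201 exon: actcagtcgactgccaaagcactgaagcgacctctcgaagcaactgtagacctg
Ewsr1-205 exon: tagaagggaccagtacag

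SR and SR-related splicing factors, which bind exonic enhancers or phosphorylate factors that do, show how far the count depends on the tool. Of 17 tested, edgeR called a transcript in 0, voom in 6 (Clk4, Srpk1, Srsf10, Srsf11, Srsf7 and Tra2a) and DESeq2 in 5. Of 15 complement and coagulation genes, edgeR called 0, voom 3 and DESeq2 7. Of 22 liver transcription factors and nuclear receptors, edgeR called Ncor1, voom 4 and DESeq2 8. Of 11 genes of xenobiotic metabolism, edgeR called Gsta3, voom 2 and DESeq2 4. Over all 5473 genes edgeR called 431 (7.88%), voom 1130 (20.6%) and DESeq2 1527 (27.9%). At an unadjusted edgeR p of at most 0.05, a transcript passed in 1 of the SR factors and 3 of the complement and coagulation genes, beside 886 of all 5473 genes. The median absolute difference of the lead was 3.75 points for the SR factors, 2.50 for complement and coagulation, 4.72 for the transcription factors and 4.50 for xenobiotic metabolism, beside 5.28 over all 5473 genes.

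Of 12 genes of the major histocompatibility complex and interferon list, edgeR called a transcript in 2, H2-K1 among them, voom in 3 and DESeq2 in 6, beside 7.88%, 20.6% and 27.9% over all genes. H2-K1-201 held 5.16% to 5.71% in CC019 (median 5.56%) and 65.9% to 68.4% in CC037 (median 67.6%, adjusted p = 7.2e-24). Class I genes are near-identical copies, as little as 3.90% of H2-K1 reads lay on the own version in an inbred, and with reads of the own version alone the adjusted p was 0.29, so the values are uncertain.

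Among genes without an allelic test, Zfp949, Dctn6 and Eml4 had large differences. Zfp949-203 held 67.6% to 87.1% in CC019 (median 76.2%) and 0% to 12.3% in CC037 (median 0%, adjusted p = 5.0e-09). Dctn6-201, of a dynactin subunit, held 64.4% to 84.1% in CC019 (median 75.3%) and 0% to 6.08% in CC037 (median 2.21%, adjusted p = 6.3e-13). Eml4-202, of a microtubule-binding protein, held 7.49% to 30.5% in CC019 (median 25.6%) and 75.6% to 99.1% in CC037 (median 90.7%, adjusted p = 5.4e-04). No groups overlapped, and all 14 F1s had the sign of the strains in each. The Zfp949 values are uncertain, since as little as 34.9% of its reads lay on the own version in an inbred and the CC037 allele of the F1s held 29.6% to 64.2% of Zfp949-203, above all 9 CC037 inbreds. The versions of Eml4-202 were 6730 and 5441 bases long in CC019 and CC037. By TPM the difference of Dctn6-201 was 50.9 points in place of 72.1. Ugt1a7c-203 held 100% in all 6 CC019 mice and 31.0% to 42.4% in CC037, but the gene shares its last exons with other Ugt1a genes and had 0 reads on the CC037 allele in all 14 F1s, so its values are uncertain.

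Some shares jumped between mice of 1 strain. A share of 0% in 1 mouse and of at least 25% in another of the same strain, a description chosen after seeing the data, was found in 2276 of 13425 transcripts (17.0%), 110 of the 554 called between strains and 28 of the 60 called for strain by sex. Slc1a4-201, of an amino acid transporter, held up to 100% in CC019 males and 0% in all CC019 females and all 9 CC037 mice (adjusted p = 0.040). This call was lost without any 1 of the 9 CC037 mice (adjusted p = 0.063 to 0.067), without CC019 male 1 (0.088) and without CC019 male 3 (0.067). Ptgs1-204 held 91.1% in CC019 male 2 and 0% in the other inbreds (adjusted p = 0.015), and voom gave an adjusted p of 0.54. Ift80-208 held 0% in all 6 CC019 mice and 0% to 73.2% in CC037 (median 68.3%, adjusted p = 1.3e-04). In males alone the difference of Ift80-208 was −52.5 points in place of −53.8 (adjusted p = 0.097), that of Ptgs1-204 was 30.4 in place of 15.2 (0.15) and that of Slc1a4-201 was 66.7 in place of 33.3 (0.23). In these 3 genes at most 54.3% of reads lay on the own version in any inbred, so the versions could hardly be told apart.

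The difference between strains differed by sex in 60 of 13425 transcripts (0.447%) with edgeR and in 828 with DESeq2. Without CC019 male 2 the edgeR count was 107, and without CC019 female 1 it was 23. Yeats2-202 held 54.6% to 62.6% in CC019 females and 0% in all CC019 males, and 0% to 26.4% in CC037 females and 0% to 57.3% in CC037 males (adjusted p = 0.014). With 3 mice in each CC019 group and jumps of this size within groups, the sex difference rests on few mice.

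Total reads differed between the strains in 2698 of 11598 genes (23.3%), 1448 higher and 1250 lower in CC019, and in 1583 without the 4 libraries that held other tissues. Without those libraries, 426 transcripts were called between strains by edgeR. Sumf2, Zfp386 and Ecsit differed in shares at like totals, with 8.28 and 8.49 CPM, 7.69 and 8.43 CPM, and 37.6 and 40.9 CPM in CC019 and CC037 (adjusted p = 0.81, 0.65 and 0.80). The totals and the shares come from the same mice.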

How the data were processed

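The deposited transcript tables hold estimated counts and TPM, which the authors made with Salmon 1.9.0 against both strain versions of each transcript. Counts of both versions were summed and rounded, and TPM served as an alternative for shares. Shares were tested with edgeR 4.0.16 (TMM, glmQLFit, diffSpliceDGE) in R 4.3.3, with Benjamini-Hochberg adjustment over all kept transcripts and a threshold of 0.05. Transcripts under the share minimum were pooled per gene. F1 alleles were tested with the mouse as a block, in genes with at least 90% of reads on the own version. Alternatives were limma 3.58.1 (voom), DESeq2 1.42.0, other filters, covariates, single sexes or crosses and leaving out each mouse. The tests were checked on simulated data, where diffSpliceDGE seldom called a changed transcript that was the most abundant of its gene. It was kept as the main test because it had been chosen as such, and its counts stand beside those of the other tools. Named genes had at least 5 CPM and were the largest differences in each class: 10 called in strains and alleles, 5 without an allelic test, and up to 3 with opposite signs, per gene list, by sex, and under 55% on the own version. Members and lists were chosen with earlier results of these data known. Depth was 31090748 to 61026642 reads per inbred.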

Additional observations from a re-analysis of the deposited data

Results flagged for a closer look

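Among 54 groups of shares of named transcripts, 7 shares, 2 of them of CC019 female 1, stood apart from the rest of their strain. Chance gives about 1 in 20 groups, but that rate need not hold where the other shares are at or near 0%. This was so for Wdfy1-207, Zscan21-204, Zfp949-203 and Ptgs1-204. Sugct-201 was at 40.3% in CC019 male 3 and 24.7% to 30.4% in the other CC019 mice. Wdfy1-207 was at 5.82% in CC019 female 3, with at most 0.223% in the others, and Zscan21-204 was at 12.6% in CC019 female 1 and 0% in the others. Pklr-202 was at 97.6% in CC019 female 1, beside 98.5% to 98.9%, and at 24.4% in CC037 male 3, beside 21.0% to 22.6%. Zfp949-203 was at 12.3% in CC037 female 1 and Ptgs1-204 at 91.1% in CC019 male 2, each with 0% in the other mice of the strain. CC019 male 2 also held pancreas transcripts and CC037 female 1 muscle transcripts, and their part in these shares was not tested.

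The strain difference differed between the sexes by an edgeR interaction test in Yeats2-202 (log2 difference 14.03), Pde2a-209 (−11.60) and Cep135-201 (−18.48), at adjusted p = 0.014, 0.042 and 0.026. Groups at 0% enter each of these fitted values, so their size is no bound.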

How the results depend on the processing

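Of 188 counts under an alternative, 164 were within 1.5 times the reported count. The others follow, and their cause was not tested except where fewer genes, transcripts or mice entered. For transcripts called between strains (554), the count was 2615 with DESeq2, 1875 with voom, 2382 with reads of the own version, 319 with a share minimum of 20% and 150 with versions within 1% in length. For genes of 10 points (382), it was 864, 723, 1281, 239 and 111 under the same settings. For alleles (279), it was 872 with voom, 423 and 152 with share minimums of 5% and 20%, and 135 in CC019 x CC037 F1s alone. For genes called in both with the same sign (48), it was 194 with voom, 21 with versions within 1% in length and 23 in CC019 x CC037 F1s alone. For strain by sex (60), it was 828 with DESeq2, 104 and 11 with share minimums of 5% and 20%, and 24 with the pooled row left out. For total reads (2698), it was 1583 without the 4 libraries that held other tissues, an alternative chosen after seeing the data.

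Leaving out 1 mouse gave 506 to 550 transcripts, 352 to 387 genes of 10 points, 265 to 283 allelic calls, 43 to 48 genes with the same sign, and 2225 to 2838 genes for total reads. For strain by sex it gave 23 (without CC019 female 1) to 107 (without CC019 male 2). With a replicate block 454 transcripts were called, but mice of the same number do not pair: over 6 pairs r ranged from −0.03 to 0.07, and 1 CC019 mouse correlated best with its own number.

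Of 594 share differences of 30 named transcripts, 544 kept their sign and side of the threshold, or with TPM moved by less than 1 SD, 13 moved by 1 SD or more, 32 lost their call, 1 gained it (Pde2a-209 in females), and 4 turned: Yeats2-202 to −31.4 in males, Pde2a-209 to 18.3 in males, and Cep135-201 to −19.0 in females and −1.91 without CC019 male 1 (leaving out any 1 mouse gave up to 17.8). Calls lost in a single sex included Sumf2-204 (−60.3 points, adjusted p = 0.059), Zscan21-204 (−47.1, 0.14) and Zfp644-205 (−17.0, 0.11) in females and Tardbp-204 (−10.5, 0.093), Ift80-208 (−52.5, 0.097) and Ptgs1-204 (30.4, 0.15) in males, with the difference as reported at −70.8, −53.8, −20.4, −9.71, −53.8 and 15.2. Fewer mice entered. With reads of the own version alone H2-K1-201 was lost (0.29). Wdfy1-207 and Slc1a4-201 were lost under several alternatives. TPM gave 27.8 points for Zfp386-204 (53.9), −3.84 for Aen-204 (−9.97) and 21.2 for Ewsr1-205 (32.5), with the reported difference in parentheses. TPM has no test, so it gives no count of transcripts.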
